A study of Mus musculus with 10 samples.

Results

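Expression in mouse embryonic fibroblasts that carried an enzymatically active form of the histone methyltransferase G9a was compared with expression in cells whose G9a was absent or catalytically impaired. The arms were chosen from the sample titles: the active arm pooled 2 arrays titled WT (FLAG-tagged wild-type G9a) with 2 titled K165A (FLAG-G9a with the K165A substitution), and the inactive arm pooled 2 titled delta (empty vector) with 2 titled H1093K (FLAG-G9a with the H1093K substitution, given in the labels as the catalytic mutant). The comparison therefore used 8 of the 10 arrays of the series, 4 in each arm. All 8 were made from fibroblasts in which G9a had been deleted before a vector was put back. The other 2 arrays, titled only as deleted, belonged to neither arm. Which promoter drove the introduced forms, whether each form was a single population of cells, and how G9a was deleted were not stated in the labels. The labels name only H1093K as catalytically mutant and state no activity for K165A, which was placed with the active forms for that reason. The design text describes 2 independent analyses but not whether they used separate cultures, so the p-values reflect only how far these arrays differ from each other, and that spread may be technical.

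G9a, encoded by Ehmt2, places methyl groups on a lysine near the end of the histone H3 tail, a mark found at silent genes, and on lysines of several other proteins, its own included. It works as a pair with the related enzyme GLP, encoded by Ehmt1. It is known both for repressing transcription through its methyltransferase domain and for acting at some active genes as a scaffold for other regulators.

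The values were signal intensities of Affymetrix probe sets, analysed as log2(signal + 16), and every fold below is on that scale, which understates the change of dim genes. The 8 arrays had median signals from 181 to 190, so their middle ranges were level. Computed over probe sets, whose values do not stand for replicates, arrays of the same arm correlated with a Pearson's r of 0.976 to 0.993 and arrays of different arms with 0.955 to 0.970. The first principal component held 53.4% of the variance and separated the arms. The replicate 1 arrays of WT and K165A stood apart at the bright end. Their 99th percentile of signal was 7644 and 7315, against 5959 to 6707 on the other 6. Values of some bright genes, such as Fos, are therefore also given by replicate. Other bright genes, Vim, Col1a2 and Fn1 among them, are given only as arm means, so the part of these arrays in their differences is not shown. The fibroblast label was checked against its markers. The mesenchymal genes Vim, Col1a2 and Fn1 had mean signals of 13274, 11712 and 11006 in the active arm and of 10765, 10667 and 9971 in the inactive arm, whereas Pdgfra, Lum and Dcn were too dim to be tested. Markers that define macrophages (Adgre1, Ptprc), endothelium (Pecam1, Cdh5) and epithelium (Epcam) lay between 4.03 and 56.3 on every array, but other markers of these types were brighter, such as Csf1r (111 to 184), Egfl7 (100.2 to 198) and the epithelial genes Krt7 (310 to 2659.8) and Jup (446 to 764).

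By its brighter probe set, Ehmt2 itself was higher in the active arm. Its signal was 676 and 620 on the WT arrays and 704 and 725 on the K165A arrays, against 473 and 415 on the delta arrays and 461 and 494 on the H1093K arrays. All 4 active arrays lay above all 4 inactive arrays. The means were 681 ± 45.3 and 461 ± 33.6 (SD, n = 4 each), a log2 difference of 0.55 (limma adjusted p = 5.66e-04; exact two-sided permutation test, p = 0.0286, the smallest that 70 splits can give). The arrays titled deleted read 1678 and 1750, above every array of the comparison. Whether this goes against that label was not tested. A second, dim Ehmt2 probe set was not tested by limma and overlapped between the arms (exact permutation p = 0.257). The position of these probes within the gene, and so relative to the deletion and the vectors, was not known, so Ehmt2 is a weak check of the labels and its level need not be that of the introduced forms.

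With 4 arrays against 4, limma found 2256 of 13576 probe sets different (16.6%), of which 1043 were higher and 1213 lower in the active arm. Most of these differences were small: 1610 of the 2256 were under 1.5-fold, 400 lay between 1.5-fold and 2-fold, and 246 were over 2-fold, 128 of them higher and 118 lower. The number over 2-fold depended on the filter, with 412 when none was used and 121 at the 60th percentile. Taking each gene by its brightest tested probe set, 1411 of 7732 genes passed (18.2%), 614 of them higher (7.94%) and 797 lower (10.3%). The 4 arrays of one arm all lay beyond the 4 of the other for 2107 of the 2256 probe sets, and for 2967 of all 13576 tested (21.9%). With a single value per form, its 2 arrays averaged, 1510 probe sets passed. The count rested on no single array, ranging from 1638 to 2008 as each array was left out, but it fell to 1360 when the replicate 1 arrays of WT and K165A were both left out.

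The largest rises included secreted regulators of signalling, and the largest falls included a chemokine and antiviral enzymes. Sfrp2, a secreted antagonist of Wnt signalling, had the largest rise among the genes named here, with signals of 8822, 7499, 7859 and 7053 in the active arm and of 484, 112, 104 and 91.8 in the inactive arm, a 46.0-fold difference. The delta replicate 1 array was the source of the highest inactive value. Angpt1, the ligand of the receptor Tie2, rose 14.3-fold, the microfibril protein Fbn2 9.02-fold, the growth factor carrier Igfbp2 7.32-fold, Nrep 6.07-fold, the tight junction protein Cldn11 5.83-fold, the transcription factor Osr2 5.17-fold and Shisa2 4.77-fold. Among the falls, the platelet chemokine Ppbp fell 9.96-fold, from 2937 ± 463 to 279 ± 33.8 (SD, n = 4 each). Smooth muscle gamma-actin Actg2 fell 9.70-fold, the antiviral enzyme Oas2 9.31-fold, the retinaldehyde dehydrogenase Aldh1a1 7.44-fold, Asb5 7.14-fold, Moxd1 6.39-fold, Oas3 6.21-fold and the keratin Krt7 5.85-fold. All 16 had a limma adjusted p of at most 6.22e-05, and each passed under every setting that tested it, with adjusted p up to 0.00286; 7 of them were too dim to be tested with the filter at the 60th percentile.

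Pooling added the smaller differences. In the 4 comparisons of 2 arrays with 2 across the arms, 1370 probe sets passed for WT against delta (10.1%), 1300 for K165A against delta (9.58%), 955 for WT against H1093K (7.03%) and 891 for K165A against H1093K (6.56%). These comparisons share arrays with each other and with the pooled one. In all, 1934 probe sets passed at least one of them (14.2%), and 1518 of those also passed when pooled. The pooled comparison passed a further 738 probe sets (5.44% of those tested and 32.7% of its own calls), 355 higher and 383 lower, for 621 genes. These are called pooled-only differences below. Since they were chosen by their own results, their sizes are a description. Their median fold was 1.25, with quartiles of 1.20 and 1.34, against a median of 1.42 and quartiles of 1.30 and 1.71 for the 1518, and 6 of the 738 exceeded 2-fold. In 657 of the 738 the arms did not overlap, beside 2107 of all 2256 calls and 2967 of all 13576 probe sets tested (21.9%). Passing the pooled fit itself selects for this. When the pooled comparison also used 1 mean per form, 578 probe sets passed only when pooled. With the replicate number as a block, all 738 still passed when pooled, but the comparisons of 2 with 2 gained as well: 556 of the 738 then passed at least one of them and 182 none, and 422 probe sets in all passed only when pooled.

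**Figure D1:**
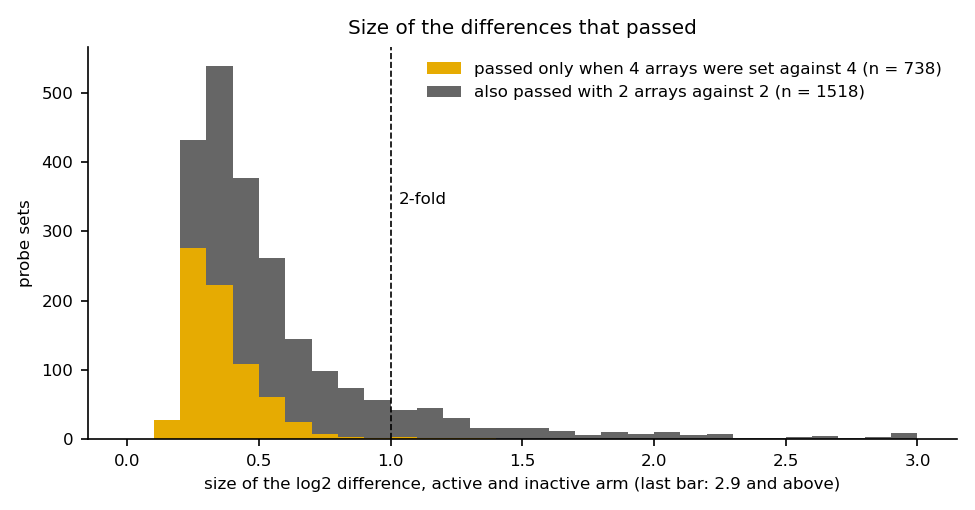
Probe sets that passed, by the size of their log2 difference between the active and inactive arm (x axis, bars of 0.1) and their number (y axis, stacked). The 738 pooled-only probe sets (yellow) gather at the small end, with a median of 1.25-fold, below the 1518 that also passed with 2 arrays against 2 (grey, median 1.42-fold).

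Among the pooled-only genes that rose, those of smallest p had varied functions. Rcor2, a corepressor of the CoREST family, had signals of 300, 415, 337 and 390 in the active arm (WT, then K165A) and of 196, 256, 223 and 228 in the inactive arm (delta, then H1093K), a 1.55-fold rise (log2 difference 0.63 ± 0.12 SE, limma adjusted p = 0.00346). Rbpj, the DNA-binding factor of the Notch pathway, read 851, 736, 827 and 767 against 585, 665, 601 and 591, a 1.29-fold rise (0.37 ± 0.07, adjusted p = 0.00435). A second Rbpj probe set did not pass (log2 difference 0.29, limma adjusted p = 0.161). Jag1, a ligand of Notch receptors, read 173, 156, 166 and 160 against 107, 70.0, 119 and 75.8, a 1.68-fold rise (0.75 ± 0.15, adjusted p = 0.00633). In each of these 3 genes, as in every pooled-only gene named, the arms did not overlap, which the rule for naming required. WT and K165A overlapped in each of the 3. Endothelin Edn1 rose 1.47-fold, from 156 ± 9.67 to 238 ± 25.7 (SD, n = 4 each).

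Further rises ran from 1.21-fold to 1.68-fold. Cdkn2c, an inhibitor of cyclin-dependent kinases, read 2918, 2856, 2933 and 2850 against 2250, 2474, 2193 and 2501, a rise of 1.23-fold. Pclaf, which binds the replication clamp PCNA, rose 1.23-fold as well. The active arrays of Cdkn2c spread by only 42.3 (SD, n = 4). Phosphomevalonate kinase Pmvk rose 1.68-fold, the sodium pump subunit Atp1b2 1.49-fold, Itprid2 1.39-fold and Rcbtb2 1.21-fold. The probe set of Pisd-ps3 rose 1.23-fold; it is annotated as a pseudogene, and signal from its parent gene Pisd cannot be told apart here. Fos, a component of the AP-1 transcription factor, read 11852 and 8558 on the WT arrays and 11784 and 8769 on the K165A arrays, against 7035, 7140, 6646 and 7235 in the inactive arm. Its 1.44-fold rise was uneven, with a log2 difference of 0.79 between the replicate 1 arrays and of 0.27 between the replicate 2 arrays.

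The pooled-only genes that fell with the smallest p had varied functions. Wdr75, a ribosome assembly factor, read 495, 456, 457 and 498 in the active arm and 673, 578, 663 and 588 in the inactive arm, a fall of 1.30-fold (log2 difference -0.38 ± 0.08 SE, limma adjusted p = 0.00555). Spcs3, a subunit of the signal peptidase, fell 1.24-fold from 7254 ± 274 to 5867 ± 293 (SD, n = 4 each). Dtd1, which removes D-amino acids from transfer RNA, fell 1.45-fold, and the phosducin-like protein Pdcl3 fell 1.24-fold. In these 4 genes, as in the other falls of this paragraph, every active array lay below every inactive array, which the rule for naming required. Tnfrsf12a, the receptor of the cytokine TWEAK, read 3448, 3136, 3709 and 2908 against 4109, 4349, 4488 and 4487, a fall of 1.32-fold (-0.40 ± 0.08, adjusted p = 0.00422). Ciao2b, which loads iron-sulfur clusters, fell 1.31-fold, and the phosphodiesterase Smpdl3a fell 1.23-fold. The fetuin Fetub fell 1.83-fold, the calcium-binding protein Gca 1.63-fold, the urea carrier Slc14a2 1.52-fold, Thnsl1 1.42-fold and the acetyltransferase Nat2 1.39-fold. A second Slc14a2 probe set did not pass (log2 difference -0.24, limma adjusted p = 0.535). All 24 pooled-only genes named kept their call whichever array was left out, and 5 kept it under every setting that tested them. Of the 5, 2 were not tested with the filter at the 60th percentile. Of the others, 15 lost their call only when both arrays of a form were left out. With the replicate number as a block, 23 of the 24 also passed at least 1 comparison of 2 arrays with 2.

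**Figure D2:**
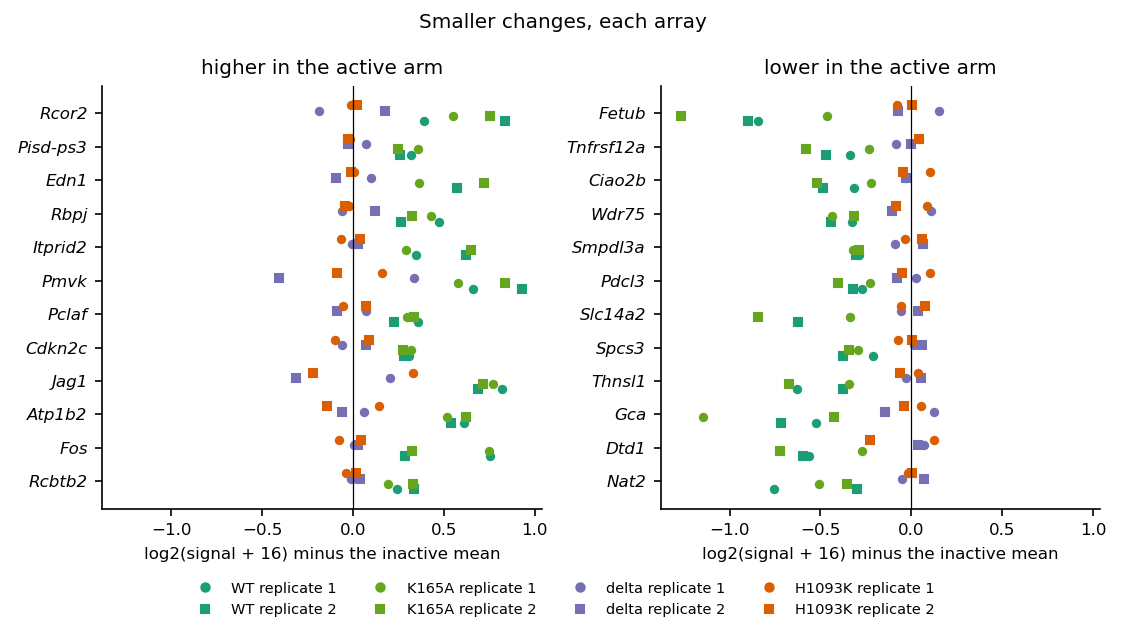
The 24 pooled-only genes of smallest p, 12 that rose (left) and 12 that fell (right). Each point is 1 array, placed by its log2(signal + 16) minus the mean of the 4 inactive arrays, with colours for the form and circles or squares for replicate 1 or 2. Green points (WT and K165A) lie on one side of all purple and orange points (delta and H1093K) in every row, as the rule for naming required; for Fos the replicate 1 arrays of the active arm lie farther out than the replicate 2 arrays.

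Each gene below stands for its brightest tested probe set. Of the 163 genes named by rule, 68 had other tested probe sets, 104 in all, of which 4 had the opposite sign. For 26 of the 68 genes at least one other probe set did not pass. The text points this out for only some of the 26, and not where Xbp1, Nes, Idh1, Scd1 and Rrp1b are given. Gene lists drawn up from general knowledge were described by the number of tested members that passed, beside the shares of all genes that passed (7.94% higher, 10.3% lower) and the median log2 difference of all genes, which was -0.01. The lists were chosen with earlier results of these data known, so their distance from those shares is a description and not a test. The lists that stood farthest from those shares on the low side were cholesterol synthesis, antigen processing, adipocyte and retinoid, and epithelial genes. On the high side they were the imprinted genes, the signalling genes of the Wnt, BMP, TGF-beta and Notch pathways and the immediate early genes. In lists with only 1 to 3 calls in a direction, the count often moved by 1 or 2 as single arrays were left out, and such counts are given as a description only.

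**Figure D3:**
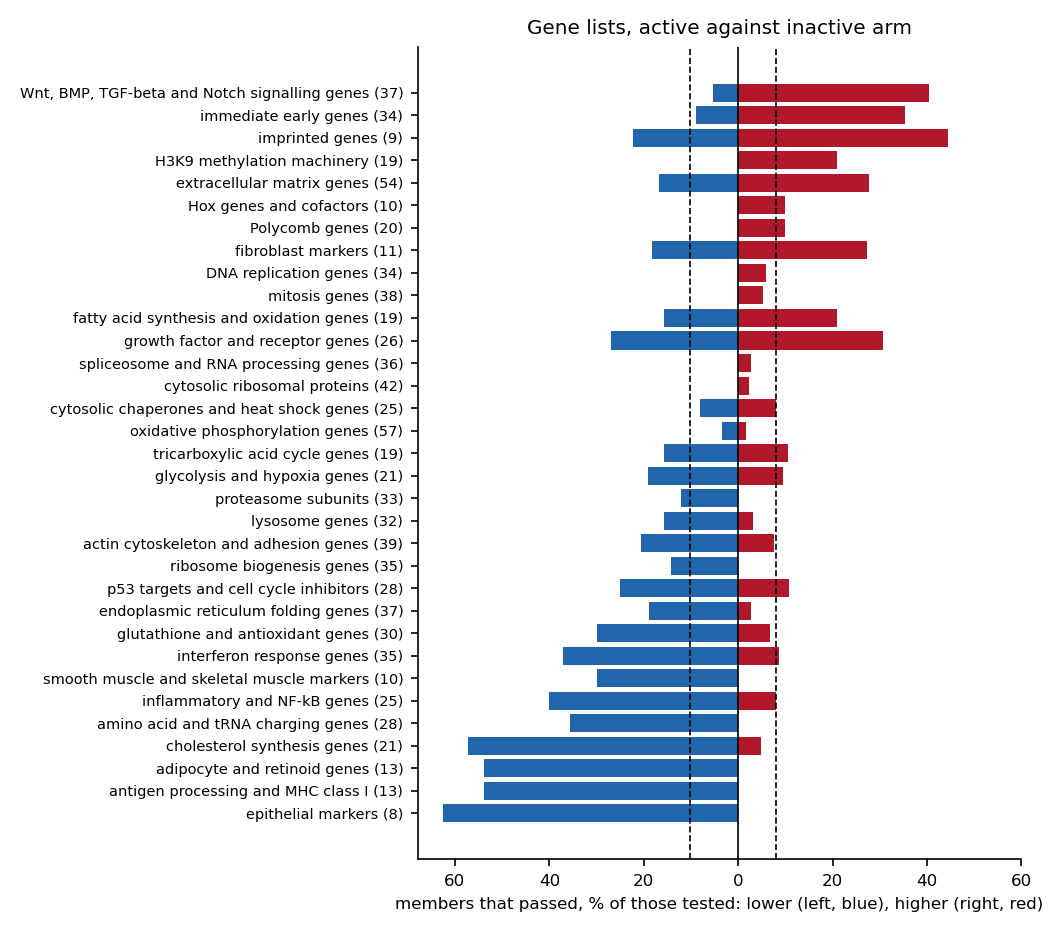
Share of tested members of each gene list (number tested in brackets; lists with under 8 tested members are left out) that passed and were lower (blue, left) or higher (red, right) in the active arm. Dashed lines mark the shares of all genes, 10.3% lower and 7.94% higher; cholesterol synthesis genes reach 12 lower of 21 and signalling genes 15 higher of 37.

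Enzymes from several steps of cholesterol synthesis fell in the active arm. Of 21 tested members, 12 fell, 1 rose and 8 did not pass, and the list median was -0.44. The falls ran from 1.24-fold to 1.84-fold. Fdps, which makes the farnesyl chain, read 2221, 1927, 2154 and 2092 in the active arm and 3403, 3480, 3696 and 3651 in the inactive arm (1.69-fold, limma adjusted p = 7.30e-06). Msmo1, Sc5d, Nsdhl and Sqle, which act on the sterol ring or its precursor, fell 1.84-fold, 1.51-fold, 1.60-fold and 1.4-fold. A second Sc5d probe set did not pass (log2 difference -0.12, adjusted p = 0.58). Pmvk, the only member that rose, is the phosphomevalonate kinase given above; Srebf2, the transcription factor that drives the pathway, had means of 1017 and 1063 and did not pass (adjusted p = 0.689). Hmgcs1, the first committed enzyme, fell 1.24-fold with overlapping arms, since WT replicate 1 read 3180 and the delta arrays 3119 and 3120; its call was lost without any of 5 of the 8 arrays (WT replicate 2, or either H1093K or K165A array). With each array left out in turn, between 11 and 13 members fell.

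Some genes of amino acid supply and protein folding fell, while few of ribosome assembly passed. Of 28 amino acid and transfer RNA charging genes, 10 fell, 0 rose and 18 did not pass, with a median of -0.24, and 4 of the 10 were pooled-only. Asparagine synthetase Asns read 517, 540, 429 and 465 in the active arm and 1085, 1182, 997 and 1033 in the inactive arm, a fall of 2.17-fold (limma adjusted p = 4.25e-06). The charging enzymes Gars, Nars, Aars and Tars fell 1.37-fold, 1.26-fold, 1.35-fold and 1.25-fold. Atf4, the transcription factor that controls many of these genes, had means of 2105 and 2035 and did not pass (adjusted p = 0.605), nor did the stress genes Ddit3 (1.04-fold lower, adjusted p = 0.729) and Trib3 (1.32-fold lower, adjusted p = 0.0679). Of 37 endoplasmic reticulum folding genes, 7 fell, 4 of them pooled-only, 1 rose and 29 did not pass (median -0.08). The co-chaperone Dnajb11 fell 1.51-fold, the transcription factor Xbp1 1.33-fold and Manf 1.17-fold (lost without WT replicate 2), while the chaperone Hspa5 had means of 5838 and 6202 and did not pass (adjusted p = 0.552). Of 35 ribosome biogenesis genes, 5 fell and 0 rose (median -0.07), a share close to that of all genes, with Rrp1b down 1.49-fold. Of 33 proteasome subunits, 4 fell and 0 rose (median -0.11). Without WT replicate 2 the folding genes gave 3 falls in place of 7. The ribosome biogenesis genes gave 3 falls without any of WT replicate 1, delta replicate 1, H1093K replicate 2 and K165A replicate 1, and the proteasome subunits 2 without any of WT replicate 2, delta replicate 1, H1093K replicate 2 and K165A replicate 2.

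Promoters of Hmgcs1, Asns and Gars, which fell, are shown because they hold the searched letters. The sterol regulatory element, which SREBP factors bind, was searched as TCACNCCAC, and the amino acid response element, which ATF4 binds, as TGATGNAA, on both strands of the RefSeq windows that run from 250 bases before to 50 after each start. Of the 7732 genes tested, 6321 had such a window by symbol. The sterol letters were found in 87 of the 6321 genes (1.38%) and in 1 of 17 cholesterol synthesis genes with a window, Hmgcs1. The amino acid letters were found in 167 of 6321 (2.64%), in 9 of 22 amino acid and charging genes with a window, and in 5 of the 8 of these that fell. A match describes the letters and is not a bound site, and a window without a match says only that the exact letters are not in it. The 250 bases before the start follow, gene strand, 5′ to 3′, with the match in capitals on whichever strand it was found, at chr13:119690101-119690350 on the plus strand for Hmgcs1, chr6:7693210-7693459 on the minus strand for Asns and chr6:55037751-55038000 on the plus strand for Gars (GRCm38.p6).
Hmgcs1: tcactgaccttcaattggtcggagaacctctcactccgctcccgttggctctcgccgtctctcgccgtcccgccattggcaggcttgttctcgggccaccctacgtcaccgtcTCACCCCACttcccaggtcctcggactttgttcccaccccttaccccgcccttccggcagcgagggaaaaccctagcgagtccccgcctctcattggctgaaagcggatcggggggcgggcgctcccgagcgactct
Asns: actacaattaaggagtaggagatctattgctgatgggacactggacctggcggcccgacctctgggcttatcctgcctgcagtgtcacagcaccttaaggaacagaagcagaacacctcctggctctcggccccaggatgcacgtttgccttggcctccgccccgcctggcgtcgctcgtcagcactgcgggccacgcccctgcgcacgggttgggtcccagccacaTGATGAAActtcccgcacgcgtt
Gars: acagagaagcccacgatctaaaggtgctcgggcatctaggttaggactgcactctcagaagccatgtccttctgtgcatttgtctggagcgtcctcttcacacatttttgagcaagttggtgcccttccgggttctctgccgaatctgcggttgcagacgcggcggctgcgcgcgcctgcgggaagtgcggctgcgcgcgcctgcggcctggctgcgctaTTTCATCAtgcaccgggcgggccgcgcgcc
In Asns and Gars the match begins 23 and 30 bases before the start, and in Hmgcs1 137 bases before it. In Gars the capitals show the element as it reads on the opposite strand.

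More interferon response and antigen processing genes fell than rose in the active arm. Of 35 interferon response genes, 13 fell, 3 rose and 19 did not pass, with a median of -0.14. Besides Oas2 and Oas3, the antiviral protein Rsad2 read 557, 676, 726 and 667 in the active arm and 1216, 1159, 1425 and 1263 in the inactive arm, a fall of 1.91-fold (limma adjusted p = 2.74e-05). Trim30a fell 2.25-fold and the RNA sensor Ifih1 1.45-fold. The 3 that rose were Ifit3 (1.36-fold), Ifit1 (1.23-fold) and the GTPase Irgm1 (1.20-fold), which are named after their values were seen. Irgm1 read 3092, 3078, 3335 and 3074 against 2639, 2527, 2629 and 2716. Irgm1 kept its call whichever array was left out, while those of Ifit3 and Ifit1 were each lost without any of 5 arrays (both delta arrays, both K165A arrays, and WT replicate 1 for Ifit3 or WT replicate 2 for Ifit1). Irf9, a subunit of the factor that binds interferon response elements, had means of 1433 and 1421 and did not pass (adjusted p = 0.937). With each array left out in turn, 12 to 14 members fell and 1 to 4 rose, 1 rising without delta replicate 1, delta replicate 2 or K165A replicate 2; by the replicate 2 arrays of the active arm alone, 9 fell and 2 rose.

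Of 13 genes of antigen processing and MHC class I, 7 fell, 0 rose and 6 did not pass (median -0.49). The immunoproteasome subunits Psmb8 and Psmb9 fell 2.51-fold and 2.10-fold and the peptide transporter Tap1 1.85-fold. The class I heavy chain H2-K1 read 3594, 3296, 3455 and 3256 in the active arm and 6514, 7482, 5553 and 6218 in the inactive arm, a 1.88-fold fall (limma adjusted p = 2.33e-05), and H2-D1 fell 1.72-fold. Class I heavy chains are alike in sequence, so signal from one may be picked up by the probe set of another. Their partner B2m had means of 10072 and 9167 and did not pass (adjusted p = 0.486). The count of 7 held whichever array was left out. Inflammatory and NF-kB genes fell in 10 of 25 cases and rose in 2 (median -0.23). The chemokine Cxcl5 fell 3.04-fold, the complement protease C1s1 2.08-fold and the growth factor Csf1 1.41-fold, while Cxcl12 rose 1.80-fold.

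Promoters of interferon genes that moved in opposite directions carried the same short element. The interferon response element was searched as GAAANNGAAA on both strands. It was found in 246 of 6321 genes (3.89%), in 15 of 28 interferon response genes with a window, in 7 of the 10 of these that fell and in all 3 that rose. Among the 12 antigen processing genes with a window it was found in 3, of which 1, Erap1, fell. The windows of Rsad2, which fell, and of Irgm1 and Ifit3, which rose, are shown as above, at chr12:26456453-26456702 on the minus strand for Rsad2, chr11:48871421-48871670 on the minus strand for Irgm1 and chr19:34583279-34583528 on the plus strand for Ifit3 (GRCm38.p6).
Rsad2: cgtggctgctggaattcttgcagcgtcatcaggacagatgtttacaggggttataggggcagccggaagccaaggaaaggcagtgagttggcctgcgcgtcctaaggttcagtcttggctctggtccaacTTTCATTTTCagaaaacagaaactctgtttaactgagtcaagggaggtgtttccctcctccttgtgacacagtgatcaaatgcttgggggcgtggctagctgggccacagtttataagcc
Irgm1: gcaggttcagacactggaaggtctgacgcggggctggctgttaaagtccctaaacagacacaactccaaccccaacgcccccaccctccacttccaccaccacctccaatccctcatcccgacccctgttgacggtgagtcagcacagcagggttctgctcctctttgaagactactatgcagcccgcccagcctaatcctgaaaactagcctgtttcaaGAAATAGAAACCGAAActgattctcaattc
Ifit3: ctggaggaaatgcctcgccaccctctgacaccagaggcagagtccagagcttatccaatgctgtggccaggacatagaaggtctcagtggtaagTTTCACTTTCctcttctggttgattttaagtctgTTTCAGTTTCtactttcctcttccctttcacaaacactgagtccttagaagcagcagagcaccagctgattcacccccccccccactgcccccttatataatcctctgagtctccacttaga
Irgm1 and Ifit3 held 2 matches each, which overlap in Irgm1, and Rsad2 held 1. In Ifit3 and Rsad2 the capitals show the element as it reads on the opposite strand.

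More signalling genes rose than fell in the active arm. Of 37 genes of the Wnt, BMP, TGF-beta and Notch pathways, 15 rose, 2 fell and 20 did not pass, with a median of 0.28. Among ligands and secreted regulators, besides Sfrp2 and Jag1, Bmp4 read 623, 739, 577 and 507 in the active arm and 82.2, 107, 153 and 172 in the inactive arm, a 4.44-fold rise (limma adjusted p = 1.39e-05). Among receptors, the Wnt receptor Fzd1 rose 2.58-fold. Among transcription factors and inhibitors inside the cell, Tcf7l1 rose 1.47-fold and Smad6, which restrains BMP signalling, 1.59-fold. A second Tcf7l1 probe set did not pass (log2 difference 0.32, limma adjusted p = 0.263). The Notch target Hes1 had means of 4395 and 4479 and did not pass (adjusted p = 0.947), although Jag1 and Rbpj rose. The 2 members that fell, named after their values were seen, were Skil (1.21-fold) and the BMP antagonist Chrd (1.42-fold); the call of Chrd was lost without either delta array, H1093K replicate 1 or K165A replicate 2. The rises numbered 12 to 16 with each array left out, and 10 by the replicate 2 arrays of the active arm alone.

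Immediate early genes, whose transcripts appear quickly after a stimulus to the cell, also held more rises than falls: of 34, 12 rose, 3 fell and 19 did not pass (median 0.24). Fosb read 3994, 4429, 3065 and 3589 in the active arm and 1149, 1357, 1289 and 1432 in the inactive arm, a 2.85-fold rise (limma adjusted p = 2.42e-06). The messenger-RNA decay factors Zfp36l1 and Zfp36 rose 1.97-fold and 1.81-fold and the transcription factor Klf2 1.81-fold. The small GTPase Rhob fell 1.58-fold. Egr1 had means of 13084 and 9997 but did not pass (adjusted p = 0.0723), and Myc, at 1085 and 1059, did not pass either (adjusted p = 0.810). Between the replicate 1 arrays the list median was 0.29 and between the replicate 2 arrays 0.17. Without WT replicate 1, H1093K replicate 2 or K165A replicate 1, 11 members rose, and 2 fell without either of the replicate 1 arrays of the active arm.

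**Figure D4:**
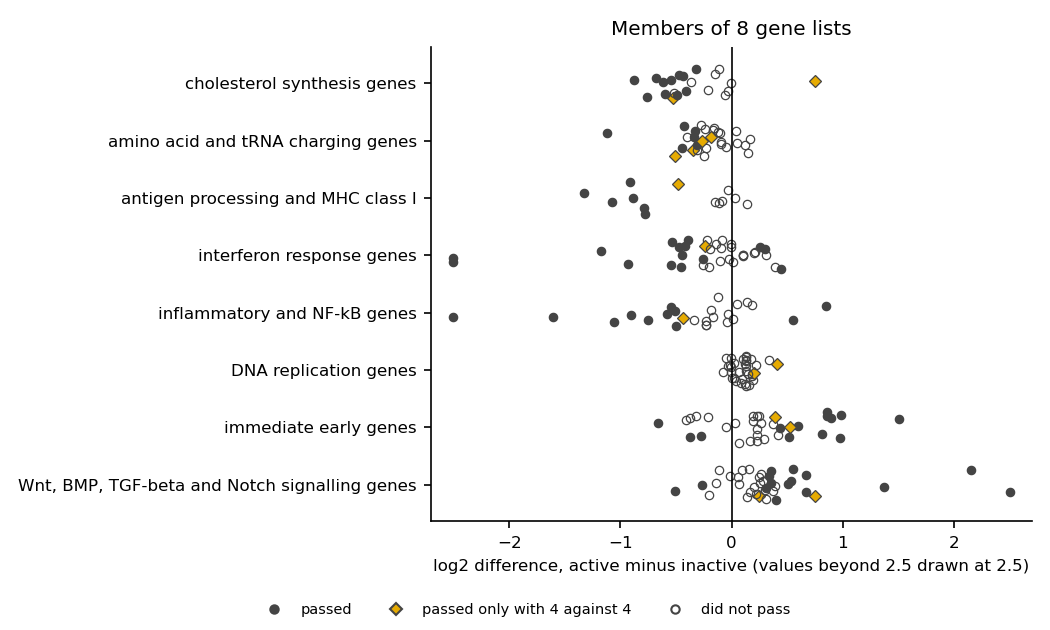
Members of 8 gene lists, each point 1 gene placed by its log2 difference between the arms (active minus inactive). Values beyond 2.5 are drawn at 2.5. Filled circles passed, yellow diamonds are pooled-only and open circles did not pass. Most cholesterol synthesis genes lie left of 0, with Pmvk far to the right, and DNA replication genes form a narrow group with 27 of 34 above 0, of which 2 passed.

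Few genes of DNA replication passed. Of 34 members, 27 had a positive difference, against 3680 of all 7732 genes (47.6%), and the list median was 0.12. Of the 34, 2 passed, both upward and both pooled-only: Pola2 (1.33-fold, named after its values were seen) and Pole (1.15-fold), a share below that of all genes. The median was 0.12 between the replicate 1 arrays and 0.10 between the replicate 2 arrays. Neither gene passed without WT replicate 1, WT replicate 2 or delta replicate 1. Of 38 mitosis genes, 2 rose, the condensin subunits Smc4 (1.21-fold) and Ncapd2 (1.23-fold), and 0 fell, with a median of 0.01. The other tested probe sets of Smc4 did not pass (adjusted p = 0.492 and 0.107). Among 28 p53 targets and cell cycle inhibitors, 7 fell and 3 rose: the pro-apoptotic gene Pmaip1 fell 2.66-fold, from 1231 ± 178 to 449 ± 12.7 (SD, n = 4 each), the kinase Plk2 1.78-fold and the cyclin-dependent kinase inhibitor Cdkn1a 2.11-fold, whereas Sesn1 rose 1.29-fold. With the replicate block 5 rose, and by the replicate 2 arrays of the active arm alone 4 fell and 3 rose.

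The share of chromatin and imprinted genes that passed differed between lists, beside 18.2% of all genes (7.94% higher, 10.3% lower). Of 19 genes of the H3K9 methylation machinery other than Ehmt2 itself, 4 rose (21.1%) and 0 fell (median 0.10). The demethylase Kdm3b read 718, 652, 722 and 670 in the active arm and 483, 553, 506 and 486 in the inactive arm, a 1.35-fold rise (limma adjusted p = 0.00155). The chromodomain protein Cdyl rose 1.42-fold and the deacetylase Hdac2 1.22-fold, the latter lost without WT replicate 2, delta replicate 1 or K165A replicate 2. The DNA methyltransferase Dnmt1, at 1.15-fold, was pooled-only and was lost without any of 7 of the 8 arrays, delta replicate 2 being the exception. Without WT replicate 2 or K165A replicate 2, 2 members rose in place of 4. The histone methyltransferase Setdb1 had means of 703 and 672 and did not pass (adjusted p = 0.617). Of 20 Polycomb genes, 2 rose (10%), Rnf2 (1.25-fold) and Rbbp4 (1.20-fold), and 0 fell. Rbbp4 was lost without any of 5 arrays (WT replicate 1, either delta array, H1093K replicate 1 or K165A replicate 1). Ezh2, the methyltransferase of the complex, did not pass (1.08-fold, adjusted p = 0.230). Of 9 imprinted genes tested, 4 rose and 2 fell (66.7% passed): Plagl1 rose 3.94-fold, Peg3 4.28-fold, Grb10 1.47-fold and Cdkn1c 2.0-fold, and Ndn fell 2.23-fold.

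Matrix genes moved both ways. Of 54, 15 rose and 9 fell, with a median of 0.10. That median was 0.19 between the replicate 1 arrays, -0.03 between the replicate 2 arrays and 0.03 after quantile normalization. Besides Fbn2, Col6a3 rose 4.31-fold, the protease Adamts1 2.48-fold and Fbln1 1.85-fold, while the protease inhibitor Timp1 fell 1.67-fold. The partner chains of Col6a3 in collagen VI, named after their values were seen, rose too, Col6a1 by 1.52-fold and Col6a2 by 1.77-fold. Of 39 actin and adhesion genes, 8 fell and 3 rose. Ankrd1, a target of mechanical and YAP signalling, read 781, 898, 684 and 832 in the active arm and 3044, 3285, 3099 and 3212 in the inactive arm, a fall of 3.91-fold (limma adjusted p = 5.31e-08), and Ccn2 fell 1.37-fold. Of 26 growth factor and receptor genes, 8 rose and 7 fell, with Igfbp4 up 2.30-fold, Pdgfrb up 1.78-fold, Igfbp7 down 2.72-fold and Vegfa down 2.22-fold.

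Markers of other cell types changed as well, and their part in the results above was not tested. Of 8 tested epithelial markers, 5 fell and 0 rose (Krt7, Pkp2, Krt18, Perp and Krt19, by 5.85-fold to 1.48-fold). The summed signal of the tested members was 1668 to 2073 in the active arm and 4010 to 5450 in the inactive arm, whereas Cdh1 had means of 150 and 103 and Krt8 of 113 and 108, and Epcam lay between 4.03 and 35.9. In bulk samples, fewer cells of a type and less RNA per cell cannot be told apart. Of 10 tested smooth and skeletal muscle markers, 3 fell and 0 rose, Actg2, Cnn1 (1.70-fold) and Tagln (1.4-fold), and the summed signal was 43208 to 49952 in the active arm and 45563 to 55634 in the inactive arm. Of 4 tested macrophage and 3 tested endothelial markers, 0 passed. Of 4 tested neuronal and glial markers, Stmn2 fell 3.14-fold, Nes fell 1.35-fold and L1cam rose 2.23-fold. Of 11 tested fibroblast markers, 3 rose (Pdgfrb, Col3a1 and Prrx1) and 2 fell (Thy1 and S100a4).

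Metabolic genes gave mixed counts. The clearest group was that of adipocyte and retinoid genes, of which 7 of 13 fell and 0 rose (median -0.30): besides Aldh1a1, the retinol dehydrogenase Rdh10 read 2108, 2135, 2325 and 2466 in the active arm and 3792, 4034, 3510 and 3740 in the inactive arm (1.67-fold lower, limma adjusted p = 2.28e-05), and the fatty acid carriers Fabp4 and Fabp5 fell 3.13-fold and 1.46-fold. Of 30 glutathione and antioxidant genes, 9 fell and 2 rose, with the peroxidase Gpx3 down 5.58-fold and the transferase Gstm2 down 2.26-fold; 6 fell without WT replicate 1. Of 19 tricarboxylic acid cycle genes, 2 rose and 3 fell, and members of the isocitrate dehydrogenase family went opposite ways: mitochondrial Idh2 rose 1.48-fold, while Idh3a fell 1.38-fold and cytosolic Idh1 1.45-fold. Of 19 fatty acid genes, 4 rose and 3 fell, with the lipogenic enzymes Me1 and Scd1 down 1.39-fold and 1.25-fold and the oxidation enzyme Acadm up 1.27-fold. Only 1 rose without WT replicate 2, delta replicate 1 or K165A replicate 2. Of 21 glycolysis and hypoxia genes, 2 rose and 4 fell, and of 57 oxidative phosphorylation genes, 1 rose and 2 fell (5 after quantile normalization). Without delta replicate 1, delta replicate 2 or K165A replicate 2, 2 glycolysis and hypoxia genes fell, and with the replicate block 7 fell. Of 32 lysosome genes, 5 fell and 1 rose. Without WT replicate 1, either delta array or K165A replicate 1, 3 lysosome genes fell.

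Some lists of bright genes moved with the replicate 1 arrays of the active arm. The median of 42 cytosolic ribosomal proteins was 0.34 between the replicate 1 arrays, 0.01 between the replicate 2 arrays and 0.02 after quantile normalization of the 8 arrays, and 1 member passed (Rplp0, 1.26-fold, lost without any of 6 of the 8 arrays, WT replicate 2 and delta replicate 2 being the exceptions). Smooth muscle markers changed sign, with a median of 0.10 between the replicate 1 arrays and -0.28 between the replicate 2 arrays, and after quantile normalization 7 of 10 fell in place of 3. Actin and adhesion genes had medians of 0.02 and -0.14, and 12 fell after quantile normalization in place of 8. By contrast the medians of the cholesterol list were -0.43 and -0.44, those of the amino acid list both -0.21 and those of the signalling list 0.27 and 0.28. Spliceosome genes (1 rose of 36, or 3 with the replicate block), cytosolic chaperones (2 rose and 2 fell of 25) and Hox genes with their cofactors (1 rose of 10) held few calls.

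**Figure D5:**
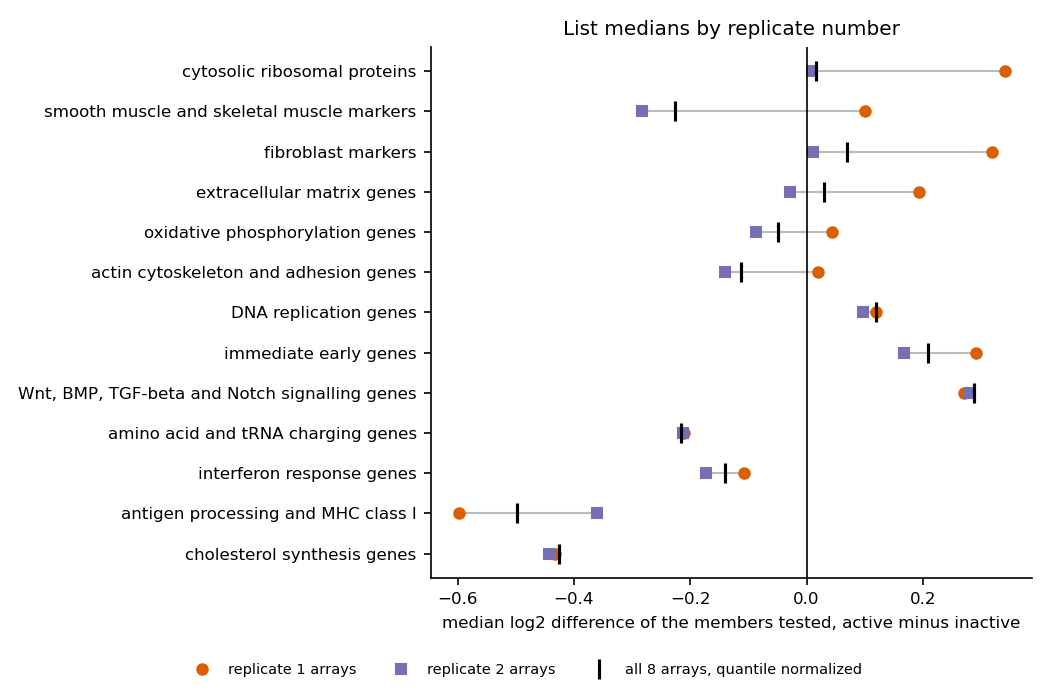
Median log2 difference (active minus inactive) of the tested members of 13 gene lists, computed between the replicate 1 arrays (orange circles), between the replicate 2 arrays (purple squares), and over all 8 arrays after quantile normalization (black bars). The points nearly coincide for cholesterol, amino acid and signalling genes and lie apart for ribosomal proteins (0.34 and 0.01) and muscle markers (0.10 and -0.28).

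Within the arms the forms were compared as well. K165A and WT differed in 0 of 13576 probe sets by limma, with 388 at an unadjusted p under 0.05 and a smallest adjusted p of 0.476; with the replicate block the count was also 0. H1093K and delta differed in 65 (0.479%), 41 higher and 24 lower in H1093K, and in 371 with the replicate block. Of the 2256 probe sets of the pooled comparison, 32 differed between H1093K and delta, among them those of Osr2, which was higher in H1093K by a log2 difference of 0.83 (adjusted p = 0.0347), and Trim30a at a log2 difference of -0.62 (adjusted p = 0.0382). Of the 738 pooled-only probe sets, 0 did. That 0 says little, since a difference between H1093K and delta widens the spread of the pooled fit, and few of all probe sets tested differed (0.479%). Among the 1043 that were higher, the median log2 difference was 0.46 for WT and 0.45 for K165A against delta, and 0.42 and 0.43 against H1093K. Among the 1213 that were lower, it was -0.45 and -0.44 against delta, and -0.41 for both against H1093K. The H1093K arrays themselves lay above delta by a median of 0.05 over the first set and the median was -0.05 over the second, and these comparisons share arrays. A further 416 probe sets passed with 2 arrays against 2 but not when pooled, and 32 of them also differed between H1093K and delta.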

How the data were processed

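The deposited table held signal intensities for 22690 probe sets of an Affymetrix mouse array, made by the authors with GCOS 1.4 per the submitters' processing notes; the scaling options are not given in the sources used here. After 64 control probe sets were left out, signals were taken as log2(signal + 16), and the 13576 probe sets above the 40th percentile of mean signal over the 8 arrays were tested. The 4 active and 4 inactive arrays were compared with limma 3.58.1 (R 4.3.3; lmFit, then eBayes with an intensity trend), with Benjamini-Hochberg adjustment over all 13576 and a threshold of 0.05. The script was tested on simulated data. Arrays are limited in precision by their number. Of the probe sets without controls, 20380 had 1 gene symbol, 691 several and 1555 none, and a gene was taken by its tested probe set of highest mean signal.

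Genes were named by rule: with 1 gene, passed, arms apart and both arm means of 16 or more, the 8 largest rises and falls, the 12 pooled-only rises and falls of smallest p under 2-fold, and up to 5 members of each list. The arms and gene lists were chosen with earlier results of these data known. Same-numbered arrays of different forms deviated together, with correlations of 0.236 to 0.524 over 6 pairs of forms, so the replicate number was treated as pairing them and used as a block in an alternative. Other alternatives changed the model, pseudocount, filter, normalization and arrays used. Promoters came from RefSeq (GRCm38.p6).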

Additional observations from a re-analysis of the deposited data

Results flagged for a closer look

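Single arrays stood apart from the other 3 of their arm in 12 of 328 arms examined (164 genes in 2 arms each), by a gap over 0.83 of the arm's range; chance gives about 1 in 20 such gaps. In the inactive arm, delta replicate 1 read 484 for Sfrp2 (others 91.8 to 111.9), 3424 for Pisd-ps3 (3194 to 3221) and 147.4 for Fzd1 (218.6 to 221.5). H1093K replicate 1 read 1091 for Ciao2b (983.3 to 994.4), 295.8 for Igfbp4 (255.1 to 261.6) and 475 for Dhrs3 (433.2 to 439.5), and H1093K replicate 2 read 1174 for Atp6v1b2 (1035 to 1043). In the active arm, K165A replicate 1 read 432.8 for Aldh1a1 (190.5 to 207.5) and 4119 for Zfp36 (3977 to 3988), K165A replicate 2 read 256.6 for Psmb8 (192.2 to 200.4), and WT replicate 1 read 1528 for Psma7 (1693 to 1706) and 968 for Ndrg1 (1022 to 1024). The arms did not overlap in any of these 12 genes, as the rule for naming required.

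The rise of Osr2 was smaller against H1093K than against delta: H1093K exceeded delta by a log2 difference of 0.83 (limma adjusted p = 0.0347). The fall of Trim30a was also smaller against H1093K, with H1093K minus delta at -0.62 (limma adjusted p = 0.0382).

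The arrays titled deleted, which entered neither arm, had a mean Ehmt2 signal of 1714, against 414.8 to 724.7 on the 8 arrays compared.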

How the results depend on the processing

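The count of 2256 probe sets was recomputed under 26 settings. It moved by over 1.5 times to 3487 with 4 group means and the replicate block, 948 without both WT arrays, 1452 without both delta arrays, 1108 without both K165A arrays, and 1360 with the active arm taken by its replicate 2 arrays (chosen after seeing the data; 1247 of those are among the 2256). Leaving out each array in turn gave 1638 to 2008, the replicate block alone 2824 (all 2256 among them), quantile normalization 2340 and averaged forms 1510. The pooled-only count of 738 became 422 with the replicate block, 125 without both WT arrays, 467 without both delta arrays, 128 without both K165A arrays, and 499 to 836 with each array left out; with averaged forms there are no comparisons of 2 arrays with 2, so it was not computed. The number over 2-fold, 246, was 412 with no filter and 121 with the filter at the 60th percentile. The causes of these moves were not tested, apart from the fewer arrays that some settings use. Of the 163 genes named by rule, 98 kept their call under every setting that tested them (17 of the 98 were too dim for the filter at the 60th percentile) and 140 whichever array was left out, and 0 reversed; the replicate block alone ended no named gene's call. The log2 difference of Ehmt2 ranged from 0.50 to 0.59 with each array left out and it passed under every setting. Genes at dim signal are limited by background, and small differences by the number of arrays.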
